A study of Mus musculus with 12 samples.

Results

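The mRNAs of 8 genes were followed in libraries of RNA bound by YTHDF1, YTHDF2 and YTHDF3 and in libraries of total RNA. These genes are widely used to mark inhibitory interneurons. They were picked by symbol, as markers of 1 class of cells and by no measured value, though with earlier results of these data known. The set holds Gad1 and Gad2, which encode the enzymes that make GABA, the neuropeptide genes Sst, Npy and Cck, the calcium-binding protein genes Calb1 and Calb2, and Reln. All 8 were among the 17126 genes tested, of 55573 genes in the count table. The neuropeptide mRNAs are short and the reelin mRNA is among the longest of the brain, and the question followed here was how far the recovery of each mRNA with the YTHDF proteins went with its length.

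Inhibitory interneurons are a minority of hippocampal neurons. They release GABA, which is made from glutamate by the glutamic acid decarboxylases GAD67 (Gad1) and GAD65 (Gad2), and their classes are told apart by the peptides, calcium-binding proteins and secreted factors that they produce. None of the 8 genes is exclusive to interneurons in every setting. Calb1 is also expressed by granule cells and pyramidal cells, Cck by pyramidal cells, and Calb2 and Reln by Cajal-Retzius cells, which line the hippocampal fissure in the young brain. The YTHDF proteins are cytoplasmic readers of N6-methyladenosine (m6A), a methylated base found in many neuronal mRNAs, with roles in mRNA translation and decay.

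Hippocampi of newborn C57BL/6 mice, an inbred laboratory strain, with no engineered allele, gave the primary neurons, which were kept in culture for 14 days. An inhibitor of cell division (Ara-C) was added early in culture, and pups of both sexes from single litters were pooled. RNA immunoprecipitation (RIP) with an antibody against endogenous YTHDF1, YTHDF2 or YTHDF3 was set against RNA from a fraction of the lysate that saw no antibody (Input), with 3 libraries in each of the 4 groups. For each replicate, the lysates of several culture wells were pooled and, per the study's methods, divided between the 3 RIPs with a shared Input. The libraries include no RIP with a control antibody, so recovery without a YTHDF antibody was not measured. Enrichment always means a level above Input. Library totals spanned 6020072 to 38909592 counts, and the libraries within a group differed by far more than sampling noise.

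The markers of 7 cell classes were summed in each library. Those of glutamatergic neurons were all detected, with a sum in the Input libraries of 967 to 2075 CPM (counts scaled to a library total of 1000000). The 12 of interneurons, which include Gad1, Gad2, Sst and Npy, summed to between 265 and 819 CPM in Input, but Pvalb, the marker of the fast-spiking basket cells, was nearly absent, with 0 to 9 counts in an Input library. The Cajal-Retzius markers Nhlh2 and Trp73 were detected in every Input library, at a mean of 7.36 and 1.03 CPM. Lhx1, Lhx5 and Ebf3 were at 0.0507, 0.241 and 0.313 CPM. The summed Cajal-Retzius list, which also holds Reln and Calb2, thus consisted almost wholly of Reln and Calb2. Astrocyte markers ranged widely between the Input libraries, from 289 CPM in replicate 1 to 1553 in replicate 2 and 2638 in replicate 3. Interneuron markers ran the other way, at 819, 579 and 265 CPM in the same libraries. The astrocyte sum ranged from 299 to 1193 CPM with YTHDF1, from 656 to 1311 with YTHDF2 and from 196 to 1485 with YTHDF3, all overlapping Input, and its part in the results was not tested. Markers of microglia and endothelial cells summed to at most 5.68 and 2.12 CPM in Input. In libraries of whole cultures, fewer interneurons and less RNA in each interneuron cannot be told apart.

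The gene Gad1 (ENSMUSG00000070880) lies at chr2:70553072-70602014 and Gad2 (ENSMUSG00000026787) at chr2:22622205-22693874, in the build GRCm38. Sst (ENSMUSG00000004366) lies at chr16:23889573-23890958, Npy (ENSMUSG00000029819) at chr6:49822710-49829507 and Cck (ENSMUSG00000032532) at chr9:121489824-121495694. Calb1 (ENSMUSG00000028222) lies at chr4:15881264-15908064, Calb2 (ENSMUSG00000003657) at chr8:110137502-110168210 and Reln (ENSMUSG00000042453) at chr5:21884454-22344702. The exonic length, which is the summed length of all annotated exons of a gene, was 566 bases for Npy, 721 for Sst, 1305 for Cck, 1743 for Calb2, 4846 for Calb1, 5876 for Gad2, 7639 for Gad1 and 23738 for Reln. The median over all genes tested was 3886 bases, and 99.7% of them were shorter than Reln while 7.75% were shorter than Npy. Exonic length overstates a gene with many isoforms: the longest coding transcript held 3355 bases for Gad1 and 11699 for Reln. No exon of another gene overlapped a member on the same strand. The pseudogene Gad1-ps, which could share reads with Gad1, had 212 counts over all 12 libraries.

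The letters of the mRNAs show how differently the members are built. The motif GGACT, written as DNA, is a common form of the sequence in which m6A is placed. It was searched on the sense strand of the coding transcript with the longest coding part, in the GENCODE annotation of GRCm38. Of the 13404 genes tested with such a transcript, 91.7% held at least 1 copy, and the median was 3 copies. Reln held 19 copies, 17 of them in its coding part of 10386 bases, a number reached by 0.477% of these genes. Per kilobase this was 1.62 copies, against a median of 1.04 over the genes. Sst held none, Npy and Cck 2 each, Calb2 2, Calb1 4, Gad2 3 and Gad1 1. Per kilobase the short mRNAs of Npy and Cck stood above Reln, at 3.53 and 2.50 copies, and all other members stood below it. The stretches below are spliced coding sequence, shown because they set the shortest mRNAs beside the densest stretch of the longest one. They comprise the whole coding sequence of Npy (chr6:49823598-49829327, plus strand), the last 300 coding bases of Sst (chr16:23889729-23890693, minus strand) and the 300 coding bases of Reln that hold the most copies (chr5:21976639-21979054, minus strand). Copies of GGACT are in capitals.

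Npy: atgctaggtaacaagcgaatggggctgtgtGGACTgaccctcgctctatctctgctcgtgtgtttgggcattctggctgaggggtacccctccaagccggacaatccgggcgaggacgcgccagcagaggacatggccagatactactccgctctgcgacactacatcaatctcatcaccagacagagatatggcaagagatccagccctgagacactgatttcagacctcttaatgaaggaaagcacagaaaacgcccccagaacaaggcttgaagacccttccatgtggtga
Sst: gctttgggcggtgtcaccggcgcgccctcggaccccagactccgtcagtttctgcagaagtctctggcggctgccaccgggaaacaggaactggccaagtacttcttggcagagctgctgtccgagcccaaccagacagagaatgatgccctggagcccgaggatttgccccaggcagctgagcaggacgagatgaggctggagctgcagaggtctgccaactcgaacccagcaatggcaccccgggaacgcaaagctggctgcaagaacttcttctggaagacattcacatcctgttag
Reln: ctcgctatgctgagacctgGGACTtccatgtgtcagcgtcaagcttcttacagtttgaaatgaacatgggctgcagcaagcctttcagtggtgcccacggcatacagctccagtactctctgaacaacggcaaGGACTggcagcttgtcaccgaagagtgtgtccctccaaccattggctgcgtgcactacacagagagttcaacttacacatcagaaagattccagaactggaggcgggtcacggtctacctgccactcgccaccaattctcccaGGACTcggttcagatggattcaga

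The coding parts of Gad1 and Gad2 are almost equal in length, at 1782 and 1758 bases, and hold 1 and 2 copies. These 30-base windows around them are shown because the ratio of the 2 mRNAs in the RIPs differed from Input, as described further on. That difference carries no test, and whether the motif has a part in it was not tested. The windows lie at chr2:70591108-70591137 for Gad1, and at chr2:22674010-22681304 and chr2:22681426-22684976 for Gad2, where each window crosses a splice junction.

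Gad1: tgcctggggtggtGGACTgctcatgtcccg
Gad2 site 1: ggttagagaggagGGACTgatgcagagctg
Gad2 site 2: tggagagcaaaggGGACTactgggtttgag

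A copy of the motif says nothing about whether it was methylated, and no m6A was measured in these libraries.

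In the total RNA of the cultures the 8 mRNAs spanned about an order of magnitude once their length was taken into account. Levels between genes are given here as CPM per kilobase of the longest coding transcript, as mean ± SD over the 3 Input libraries. Calb2, which encodes calretinin, stood highest at 144 ± 83.9, followed by Sst (somatostatin) at 123 ± 60.3 and Cck (cholecystokinin) at 120 ± 19.4. Gad1 followed at 51.8 ± 27.4, Gad2 at 23.5 ± 13.3, Npy (neuropeptide Y) at 23.0 ± 12.4, Calb1 (calbindin) at 18.1 ± 8.70 and Reln at 15.4 ± 4.15. Between neighbours in this order, the ranges of the 3 libraries were separate only between Cck and Gad1. Much of the spread was shared between genes, however, and within each Input library Gad1, at 75.5, 58.1 and 21.8, was above Gad2, at 35.0, 26.5 and 8.99. No other pair of neighbours with overlapping ranges kept 1 order in all 3 libraries. In Input and in the YTHDF3 RIP, replicate 3 had the lowest level of each of the 8 mRNAs. In the YTHDF2 RIP the lowest library was replicate 2 for all 8, and in the YTHDF1 RIP it was replicate 2 for all except Sst and Cck. The summed level of glutamatergic markers was lowest in the same library of each group. Gad1 varied 3.46-fold between the Input libraries and Reln 1.74-fold, whereas Cck varied 1.36-fold.

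**Figure D1:**
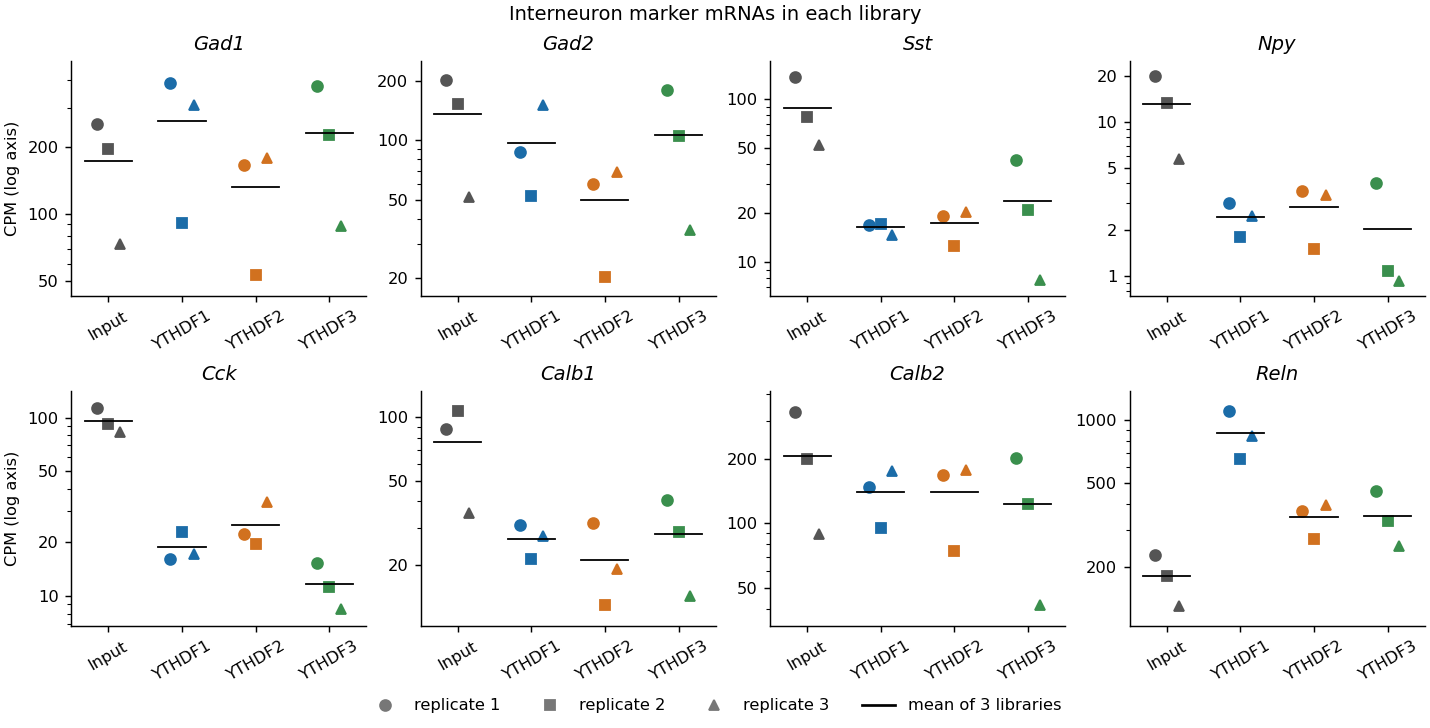
Level of each mRNA in each of the 12 libraries, in CPM on a log axis that differs between panels. Symbols give the replicate number and lines the mean of 3 libraries. Sst, Npy and Cck lie lower in every RIP library than in any Input library, Reln lies higher, and Gad1, Gad2 and Calb2 overlap between groups.

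Against Input, in the fit of all 12 libraries, Reln was enriched, Sst, Npy, Cck and Calb1 were depleted, and Gad1, Gad2 and Calb2 were not called in either direction, with each of the 3 proteins. In the fit that pairs YTHDF3 and Input libraries of equal number, Gad1, Gad2 and Calb2 were called as well, as given with those genes. A gene was called where its log2 fold change was 0.32 or more in size and its adjusted p at most 0.05 (edgeR quasi-likelihood test, Benjamini-Hochberg adjustment over all genes tested). The 1 enriched and 4 depleted members of 8 in the YTHDF1 RIP stand beside 27.2% of all genes tested enriched and 25.8% depleted. With YTHDF2, 1 enriched and 4 depleted members stand beside 15.7% and 19%, and with YTHDF3 the same counts stand beside 16.4% and 23%. In each RIP, 4 of 8 is a larger share than that of all genes depleted. For enrichment, 1 of 8 is near the share of all genes with YTHDF2 and YTHDF3, and under it with YTHDF1. The median log2 fold change of the members was -1.04 with YTHDF1, -1.64 with YTHDF2 and -1.1 with YTHDF3, against 0.02, 0.02 and 0.05 over all genes. The 3 comparisons share the Input libraries and are therefore not independent of each other. The background itself moved with the scaling. With library size alone, the share of all calls that were enrichments went from 51.4% to 33.2% for YTHDF1 and from 41.7% to 61.4% for YTHDF3, and the log2 fold changes shifted by a median of -0.41 and 0.32. With TMM factors from protein-coding genes alone, that share was 40.0% in the YTHDF1 RIP. No called member changed direction under either scaling.

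The 3 peptide precursors were the most strongly depleted members. Somatostatin, which inhibits the release of other hormones and transmitters, is the product of dendrite-targeting interneurons. Sst was at 137, 77.2 and 52.1 CPM in Input replicates 1, 2 and 3. It was at 16.9, 17.3 and 14.8 CPM with YTHDF1, at 19.1, 12.5 and 20.3 with YTHDF2 and at 42.5, 20.9 and 7.74 with YTHDF3. All 9 RIP libraries lay below the lowest Input library, and the 3 YTHDF1 libraries were nearly level although their Gad1 varied 4.25-fold. The log2 fold change of Sst was -2.44 ± 0.53 (SE, n = 3 libraries per group), or 5.44-fold lower, with YTHDF1 (edgeR adjusted p 0.00237), -2.35 ± 0.53 with YTHDF2 (edgeR adjusted p 0.00559) and -1.90 ± 0.51 with YTHDF3 (edgeR adjusted p 0.0118). Of all genes tested, 4.50%, 3.30% and 10.3% had lower log2 fold changes.

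Neuropeptide Y, a modulator of excitability that is made by several interneuron classes, had the lowest counts of the members. Npy had 54 to 261 counts in an Input library and 10 to 104 in a RIP library. It was at 19.9, 13.3 and 5.78 CPM in the Input replicates, at 3.0, 1.78 and 2.47 with YTHDF1, at 3.59, 1.49 and 3.35 with YTHDF2 and at 4.04, 1.07 and 0.926 with YTHDF3. No RIP library reached the lowest Input library. Its log2 fold changes were -2.44 ± 0.61 with YTHDF1 (edgeR adjusted p 0.00581), -2.20 ± 0.62 with YTHDF2 (edgeR adjusted p 0.0172) and -2.70 ± 0.61 with YTHDF3 (edgeR adjusted p 0.00440). The YTHDF2 call was lost without Input replicate 1 (edgeR adjusted p 0.0652) and without YTHDF2 replicate 2 (edgeR adjusted p 0.0633).

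Cholecystokinin is the peptide of a class of basket cells and is also made by pyramidal cells. Cck was the member with the smallest spread in Input. It stood at 113, 91.9 and 82.9 CPM in the Input replicates, at 16.3, 22.9 and 17.3 with YTHDF1, at 22.3, 19.6 and 33.6 with YTHDF2 and at 15.4, 11.2 and 8.53 with YTHDF3. The RIP and Input libraries were far apart. The log2 fold changes were -2.35 ± 0.28 with YTHDF1 (edgeR adjusted p 5.1e-05), -1.93 ± 0.27 with YTHDF2 (edgeR adjusted p 0.000535) and -3.03 ± 0.28 with YTHDF3 (edgeR adjusted p 3.71e-05), the last an 8.19-fold depletion.

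Reelin, a large extracellular glycoprotein that guides neuronal migration and acts at synapses of the mature brain, was the only enriched member. Reln was at 228, 181 and 131 CPM in Input replicates 1, 2 and 3. It rose to 1108, 652 and 838 CPM with YTHDF1, where every library was above all libraries of the other groups. It was at 371, 272 and 396 CPM with YTHDF2 and at 461, 332 and 251 with YTHDF3, all above the highest Input library. The log2 fold change was 2.27 ± 0.31 with YTHDF1, or 4.81-fold (edgeR adjusted p 0.000119), and 95.3% of all genes tested had a lower value. With YTHDF2 it was 0.95 ± 0.30 (edgeR adjusted p 0.0283) and with YTHDF3 0.95 ± 0.30 (edgeR adjusted p 0.0240). These last calls were close to the threshold. The YTHDF2 call was lost without Input replicate 2 or 3 and without YTHDF2 replicate 1 or 3, where the log2 fold change lay between 0.73 and 0.95. It was also lost with no filter on low counts (edgeR adjusted p 0.0507). The YTHDF3 call was lost without Input replicate 2 or 3 and without YTHDF3 replicate 1, at 0.70 to 0.96. It held in the fit that pairs YTHDF3 and Input libraries of equal number, where all 8 members were called. The YTHDF1 call held with each of the 12 libraries left out in turn.

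The 2 calcium-binding proteins differed from each other. Calbindin, a cytosolic calcium buffer, has an mRNA with a long part after the stop codon, of 3301 bases. Calb1 was at 88.0, 106 and 35.5 CPM in the Input replicates, at 31.1, 21.5 and 27.6 with YTHDF1, at 31.5, 13.0 and 19.2 with YTHDF2 and at 40.8, 28.8 and 14.4 with YTHDF3. Input replicate 3 stood apart from the other 2, and YTHDF3 replicate 1 lay above it, so those groups overlapped. The log2 fold changes were -1.52 ± 0.46 with YTHDF1 (edgeR adjusted p 0.0159), -1.85 ± 0.47 with YTHDF2 (edgeR adjusted p 0.0106) and -1.45 ± 0.46 with YTHDF3 (edgeR adjusted p 0.0256). The YTHDF1 call was lost without Input replicate 2 (edgeR adjusted p 0.0671). The YTHDF3 call was lost without Input replicate 1 or 2, without YTHDF3 replicate 2 or 3 and with library size alone (edgeR adjusted p 0.0503 to 0.103). It held in the fit that pairs YTHDF3 and Input libraries of equal number. Each YTHDF3 library lay below the Input library of the same number.

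Calretinin, a related buffer of interneurons that target other interneurons, has the shorter mRNA. Calb2 was at 330, 200 and 89.8 CPM in Input, at 148, 95.1 and 175 with YTHDF1, at 168, 74.7 and 177 with YTHDF2 and at 202, 124 and 41.9 with YTHDF3. The groups overlapped throughout. Its log2 fold changes of -0.57 ± 0.57, -0.56 ± 0.57 and -0.75 ± 0.57 did not pass the test, with edgeR adjusted p of 0.423, 0.471 and 0.321. The 95% intervals ran from -1.81 to 0.67, from -1.80 to 0.68 and from -2.0 to 0.49, which leaves room for a sizeable depletion. YTHDF3 and Input libraries with the same replicate number deviated together, and in the fit of those 6 libraries with the replicate block the value was -0.77 and passed the test (edgeR adjusted p 2.49e-07).

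Neither GABA-synthesizing enzyme passed the test in the fit of all 12 libraries. Gad1 was at 253, 195 and 73.2 CPM in the Input replicates, at 388, 91.2 and 308 with YTHDF1, at 167, 53.6 and 178 with YTHDF2 and at 377, 226 and 88.4 with YTHDF3. Its paralog Gad2 was at 201, 152 and 51.6 CPM in Input, at 87.6, 51.9 and 151 with YTHDF1, at 60.2, 20.3 and 68.8 with YTHDF2 and at 179, 105 and 35.1 with YTHDF3. The groups overlapped for both genes in every comparison, and the lowest library of each group was that with the lowest summed interneuron markers, a list that holds both genes. The log2 fold changes of Gad1 were 0.59 ± 0.66, -0.39 ± 0.66 and 0.41 ± 0.66, with edgeR adjusted p of 0.475, 0.679 and 0.658. Those of Gad2 were -0.48 ± 0.65, -1.44 ± 0.67 and -0.34 ± 0.65, with edgeR adjusted p of 0.565, 0.115 and 0.706. In the 6 libraries of YTHDF3 and Input with the replicate block, Gad1 passed as enriched at 0.41 (edgeR adjusted p 0.000414) and Gad2 as depleted at -0.36 (edgeR adjusted p 0.00163). With that block 2 members were enriched and 6 depleted in the YTHDF3 RIP, in a fit that called 36.3% of all genes enriched and 32.2% depleted.

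**Figure D2:**
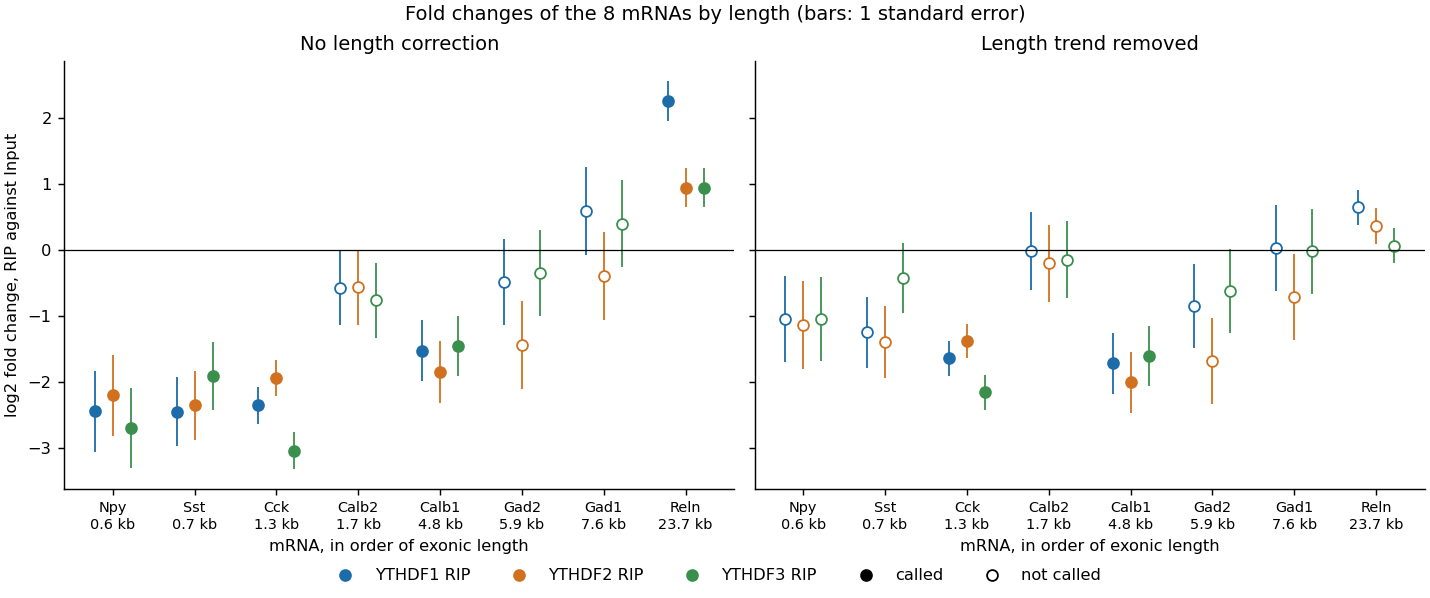
Log2 fold change of each mRNA in the 3 RIPs against Input, with bars of 1 standard error, in order of exonic length, as fitted and after the trend with length was taken out of each library. Filled symbols passed the test. On the left the values climb from -2.44 for Npy to 2.27 for Reln with YTHDF1. On the right only Cck and Calb1 remain called.

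The order of the fold changes followed exonic length closely. By the longest coding transcript Gad1, at 3355 bases, comes before Calb1, at 4222, and Gad2, at 5744, although its fold changes were above theirs. No correlation was computed with that length. Spearman's rho between exonic length and log2 fold change over the 8 members was 0.952 with YTHDF1, 0.905 with YTHDF2 and 0.905 with YTHDF3, as a description of these genes. Across all 17126 genes, which are not independent of each other, it was 0.459, 0.379 and 0.519. Among the 2249 genes with under 1 kb of exon, the class of Sst and Npy, 52.2% were depleted with YTHDF1, 42.9% with YTHDF2 and 59.4% with YTHDF3, at median log2 fold changes of -1.28, -1.07 and -1.77. Sst and Npy lay below these medians in all 3 RIPs. Among the 2689 genes with 8 kb or more, the class of Reln, 56.8%, 31.6% and 41.0% were enriched, at medians of 0.97, 0.45 and 0.65. Reln lay above them, most clearly with YTHDF1. Calb1 and Cck lay below the medians of genes of their length. Calb1 is longer than the median gene, and genes of 4 to 8 kb had medians of 0.31, 0.23 and 0.30, whereas Calb1 lay between -1.85 and -1.45. Cck, at -2.35, -1.93 and -3.03, belongs to the genes of 1 to 2 kb, with medians of -0.79, -0.47 and -0.71.

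The trend of log2 CPM with exonic length was then removed from each library before the fit. Under this setting 0 members were enriched and 2, Cck and Calb1, were depleted in each RIP, beside 23.6%, 16.5% and 17.6% of all genes depleted and 23.5%, 13.4% and 14.8% enriched under the same setting with YTHDF1, YTHDF2 and YTHDF3. A count of 2 of 8 is thus close to the background. Cck stood at -1.64 with YTHDF1 (edgeR adjusted p 0.000451), -1.37 with YTHDF2 (edgeR adjusted p 0.00281) and -2.15 with YTHDF3 (edgeR adjusted p 0.000185). Calb1 stood at -1.71, -2.0 and -1.60, with edgeR adjusted p of 0.00935, 0.00788 and 0.0192. Sst fell out of the calls at -1.24, -1.40 and -0.42 (edgeR adjusted p 0.0783, 0.0728 and 0.579) and Npy at -1.04, -1.13 and -1.04 (edgeR adjusted p 0.213, 0.221 and 0.236). Reln stood at 0.65, 0.37 and 0.07 and was no longer called, with edgeR adjusted p of 0.0671, 0.321 and 0.866. With the replicate block added to the length removal, Reln passed again in the YTHDF1 RIP, so that 3 members were called there. Whether length itself or another feature of short and long mRNAs underlies the trend was not tested.

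**Figure D3:**
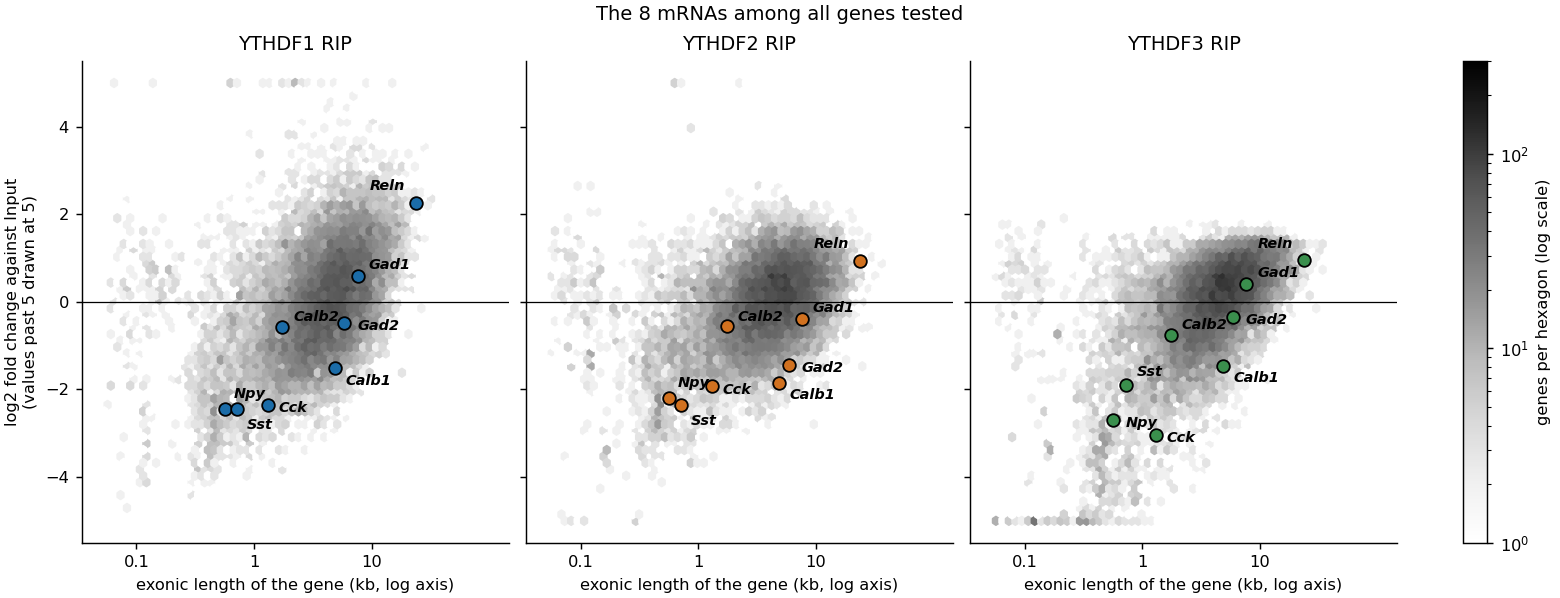
Log2 fold change against exonic length, on a log axis, for all genes tested (grey, darker where more genes fall) and the 8 mRNAs (coloured) in each RIP. The cloud tilts upwards with length in every panel, Reln sits at its long end, Sst and Npy at its short end, and Calb1 in its lower part.

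Ratios of 2 mRNAs within a library do not depend on the scaling of the library. The mean log2 CPM of Sst, Npy and Cck minus that of Reln was -1.75, -1.99 and -2.15 in Input replicates 1, 2 and 3. It was -6.86, -6.16 and -6.58 with YTHDF1, -4.99, -5.20 and -4.89 with YTHDF2 and -5.04, -5.66 and -5.92 with YTHDF3. Every RIP library was thus well below every Input library, and the YTHDF1 libraries were the lowest of all. The group means, ± SD over 3 libraries, were -1.96 ± 0.20, -6.53 ± 0.35, -5.03 ± 0.16 and -5.54 ± 0.45, so that the balance of peptide and reelin mRNA moved by -4.57, -3.06 and -3.58 in log2 units. With the length trend removed, the differences were -1.80, -1.60 and -1.29. No p is given for this score over chosen genes.

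The 2 decarboxylase mRNAs varied together between libraries, and their ratio had a small spread in every group except the YTHDF1 RIP, where the SD was 0.72. Gad1 minus Gad2 in log2 CPM was 0.33, 0.36 and 0.50 in Input, 2.15, 0.81 and 1.02 with YTHDF1, 1.47, 1.39 and 1.37 with YTHDF2 and 1.07, 1.1 and 1.33 with YTHDF3. The lowest RIP library, at 0.81, was above the highest Input library, at 0.50, and in the YTHDF2 RIP the SD was only 0.05. Relative to Gad2, Gad1 was thus higher in the RIPs by 0.93, 1.01 and 0.77 in log2 units. The YTHDF1 value rests in large part on replicate 1 and is 0.52 without it. These are differences in group means with no test, and the smallest p that an exact permutation of 3 against 3 libraries allows is 0.1. Calb2 minus Gad2 was 1.57 ± 0.27 with YTHDF2, above Input at 0.63 ± 0.21 without overlap. It was 0.61 ± 0.36 with YTHDF1, overlapping Input, and 0.22 ± 0.04 with YTHDF3, below Input without overlap. Sst minus Gad2 was -0.51 ± 0.50 in Input and -2.43 ± 0.89, -1.36 ± 0.59 and -2.19 ± 0.13 with YTHDF1, YTHDF2 and YTHDF3. Calb1 minus Gad2 was -0.75 ± 0.38 in Input and -1.74 ± 0.63, -1.14 ± 0.62 and -1.76 ± 0.44 in the same RIPs. For both ratios the YTHDF2 libraries overlapped Input, and those of YTHDF1 and YTHDF3 lay below it without overlap.

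**Figure D4:**
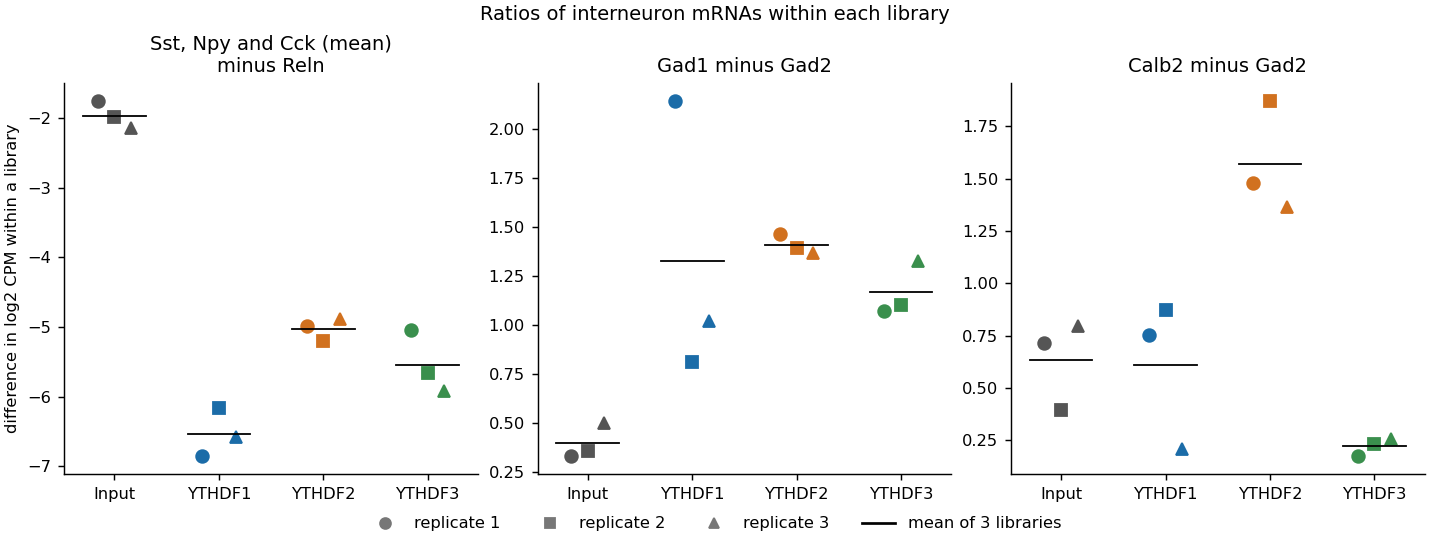
Differences in log2 CPM within each library, for the mean of Sst, Npy and Cck minus Reln, for Gad1 minus Gad2 and for Calb2 minus Gad2. Symbols give the replicate number and lines the mean of 3 libraries. The RIP libraries lie apart from Input in the first 2 panels, and in the third those of YTHDF2 lie above it.

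Between the RIPs a gene was called at a fold of 2 or more. Reln was the 1 member of 8 that differed between YTHDF1 and YTHDF2, beside 11.4% of all genes tested higher with YTHDF1 and 6.1% lower. The 3 YTHDF1 libraries, at 652 to 1108 CPM, lay above the 3 YTHDF2 libraries, at 272 to 396, with a log2 difference of 1.32 ± 0.30 (edgeR adjusted p 0.00678). Reln was again the only member called between YTHDF1 and YTHDF3, at 1.31 ± 0.30 (edgeR adjusted p 0.00914), beside 10.8% of genes higher with YTHDF1 and 3.63% lower. Without the length trend these differences were 0.28 and 0.58 and did not pass, with edgeR adjusted p of 0.496 and 0.155. With library size alone they were 0.89 and 0.64, under the fold required, and in a fit of YTHDF1 and YTHDF3 alone the second was lost (edgeR adjusted p 0.0675). Between YTHDF2 and YTHDF3, Reln differed by -0.01, with a 95% interval from -0.65 to 0.64.

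Cck was the only member called between YTHDF2 and YTHDF3, beside 3.95% of genes higher with YTHDF2 and 1.16% lower. It was at 19.6 to 33.6 CPM with YTHDF2 and 8.53 to 15.4 with YTHDF3, a log2 difference of 1.11 ± 0.27 (edgeR adjusted p 0.0314). The call was lost without Input replicate 2, without any of the 3 YTHDF2 libraries and without YTHDF3 replicate 2 or 3, at edgeR adjusted p of 0.0529 to 0.115. It was also lost with the length trend removed (edgeR adjusted p 0.0952). In log2 units, Sst differed by 0.54 or less in size between any pair of RIPs and Npy by 0.50 or less, with 95% intervals that reached beyond 1 in size in each pair. With library size alone, the share of all calls that were higher in the first protein went from 65.1% to 27.6% (YTHDF1 and YTHDF2), from 74.9% to 18.2% (YTHDF1 and YTHDF3) and from 77.3% to 40.2% (YTHDF2 and YTHDF3), and no member was called. With TMM factors from protein-coding genes the first 2 shares were 53.5% and 58.5%.

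Other genes of the same pathways were examined as lists. Each count stands beside 27.2%, 15.7% and 16.4% of all genes enriched and 25.8%, 19% and 23% depleted with YTHDF1, YTHDF2 and YTHDF3, and each median beside 0.02, 0.02 and 0.05. The counts of several lists changed by more than 1.5 times with single libraries, and their ranges with each of the 12 libraries left out in turn are given. Unless stated, the genes named kept their calls in all of those fits. Of the 6 other genes that handle GABA, 5 were tested and none was called in any RIP by edgeR or by DESeq2, with 0, 1 and 0 of the 5 at an unadjusted p under 0.05 and with medians of -0.13, -0.54 and -0.09. They include the vesicular transporter Slc32a1, at -0.13, -0.62 and -0.05. With the length trend removed, 1, 1 and 0 of the 5 were depleted.

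Of 18 other neuropeptide precursors listed, 9 were tested, and 5, 3 and 3 were depleted with YTHDF1, YTHDF2 and YTHDF3 while none was enriched. The remaining 4, 6 and 6 did not pass, and the medians were -1.65, -1.30 and -0.63. With 1 library left out, 4 to 6, 1 to 4 and 2 to 3 were called. Cort, which encodes cortistatin, a peptide related to somatostatin, has 677 bases of exon and lay at -3.28 ± 0.75 with YTHDF1 (edgeR adjusted p 0.00330) and -3.67 ± 0.73 with YTHDF3 (edgeR adjusted p 0.00217). With YTHDF2 it was at -2.62 ± 0.75 (edgeR adjusted p 0.0190), a call that was lost without Input replicate 1 or 2 or YTHDF2 replicate 2 or 3, within a range of -3.36 to -2.18. Vip, the peptide of interneuron-selective cells, has 3402 bases and a mean of 2.86 CPM in Input, and it lay at -2.75 ± 0.68 with YTHDF1 and -2.74 ± 0.73 with YTHDF2, the latter lost without Input replicate 2 (-2.15). With YTHDF3, Vip was at -1.40 ± 0.60, which did not pass (edgeR adjusted p 0.0863). Pnoc, the nociceptin precursor, was depleted at -1.76 with YTHDF1 and -2.16 with YTHDF3. It was also called with YTHDF2 at -1.55 (edgeR adjusted p 0.0258), a call lost in 5 of the 12 fits with 1 library left out. After removal of the length trend, 3, 1 and 2 of the 9 were depleted and 0, 0 and 1 were enriched.

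Of 11 genes for cargo and peptide processing in dense-core vesicles, all were tested, and 3, 1 and 3 were depleted while none was enriched, at medians of 0.32, -0.38 and -0.33. These shares are near or below those of all genes. With the length trend removed, 0, 1 and 1 were depleted and 1, 0 and 0 enriched, and with 1 library left out 1 to 2, 1 to 2 and 1 to 3 were called. The processing inhibitor Pcsk1n was depleted with all 3 proteins, at -1.07 ± 0.30, -1.34 ± 0.30 and -2.24 ± 0.31. Of the receptors for the 3 peptides, 7 of 10 were tested, and 1, 0 and 2 were enriched while none was depleted, with 1 to 3, 0 to 1 and 1 to 2 called when 1 library was left out. Npy2r, a receptor for neuropeptide Y, was enriched at 1.56 ± 0.28 with YTHDF1 (edgeR adjusted p 0.000724) and 1.30 ± 0.28 with YTHDF3 (edgeR adjusted p 0.00315), the direction opposite to its ligand, and lay at 0.06 ± 0.29 with YTHDF2.

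Of 12 other calcium-binding proteins of neurons listed, 10 were tested, and 3, 3 and 1 were depleted while none was enriched, at medians of -0.83, -0.77 and -0.73. The counts are not far from the shares of all genes depleted. With 1 library left out, 1 to 6, 1 to 5 and 1 to 2 were called, and with the length trend removed 3, 1 and 1 were depleted. Necab1, a neuronal calcium-binding protein, was at -1.64 ± 0.41 with YTHDF1 and -1.79 ± 0.42 with YTHDF2, and without the length trend it stayed depleted at -1.89 and -1.98. Hpca, which encodes hippocalcin, was depleted with YTHDF3 at -1.80 ± 0.46, and at -1.56 without the length trend. Hpca was also called with YTHDF1 at -1.23 (edgeR adjusted p 0.0379) and with YTHDF2 at -1.31 (edgeR adjusted p 0.0441). Those calls were lost in 4 and 5 of the 12 fits with 1 library left out, and with the length trend removed.

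All 9 genes listed for the reelin pathway were tested. With YTHDF1, YTHDF2 and YTHDF3, 5, 3 and 7 were enriched and 0, 1 and 0 depleted, at medians of 0.41, 0.15 and 0.58. With 1 library left out, 2 to 5, 0 to 5 and 4 to 7 were called. The receptor genes Lrp8 and Vldlr were enriched with YTHDF3, at 0.81 ± 0.19 (edgeR adjusted p 0.00511) and 1.05 ± 0.23 (edgeR adjusted p 0.00431). Without the length trend they were at 0.16 and 0.51 and were not called. Lrp8 was also called with YTHDF1 at 0.49 (edgeR adjusted p 0.0454) and with YTHDF2 at 0.59 (edgeR adjusted p 0.0295). That YTHDF2 call was lost in 4 of the 12 fits with 1 library left out, and the YTHDF1 call was not followed there. The adaptor genes Crk and Crkl led with YTHDF1, at 1.22 ± 0.19 and 1.94 ± 0.21. Crk was the 1 gene of the list depleted with YTHDF2, at -0.58 ± 0.19 (edgeR adjusted p 0.0306), a call lost in 4 of the 12 fits with 1 library left out. Fyn, the kinase that phosphorylates the reelin adaptor, was enriched with YTHDF3 at 0.55 ± 0.15. Its values of 0.41 and 0.46 with YTHDF1 and YTHDF2 were at the threshold, and those calls were lost with most single libraries left out and with the length trend removed. Without the length trend, 2, 1 and 3 of the 9 were enriched and 1, 1 and 0 depleted.

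Of 18 genes listed for interneuron identity, most of them transcription factors, 17 were tested. With YTHDF1 8 were enriched and 1 depleted, with YTHDF2 1 and 2, and with YTHDF3 7 and 0, at medians of 0.69, 0.00 and 0.69. Differences between the proteins were not tested for the list. Without the length trend, 8, 1 and 3 were enriched and 0, 2 and 0 depleted, and with 1 library left out 8 to 10, 0 to 3 and 2 to 8 were called. Maf and Sp8 led with YTHDF1 at 3.03 ± 0.29 and 3.02 ± 0.21. Of the other surface and signalling genes of interneurons, 13 of 14 were tested. With YTHDF1 8 were enriched and 0 depleted, with YTHDF2 1 and 1, and with YTHDF3 4 and 0, at medians of 1.08, -0.02 and 0.81. Without the length trend, 4, 0 and 0 were enriched and 0, 1 and 0 depleted, and with 1 library left out 5 to 9, 1 to 4 and 1 to 5 were called. Kcnc2, a potassium channel of fast-spiking cells, and Erbb4, a neuregulin receptor, led with YTHDF1 at 3.51 ± 0.64 and 3.46 ± 0.59, while Igf1 was depleted with YTHDF2 at -2.76 ± 0.68.

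**Figure D5:**
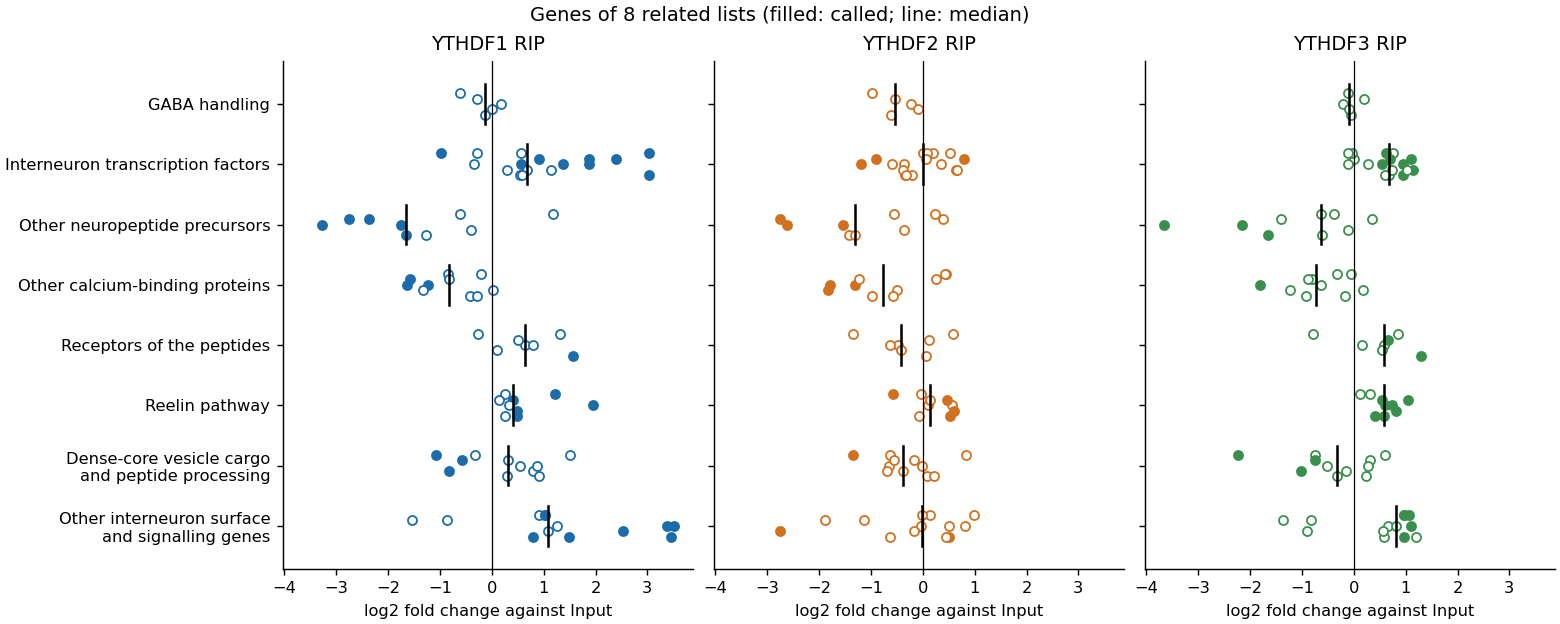
Log2 fold changes against Input of the genes of 8 related lists, 1 point per gene, filled where the gene passed the test, with the median of each list as a line. The medians of the neuropeptide precursors lie to the left of 0, at -1.65, -1.30 and -0.63. Those of the reelin pathway lie to the right, at 0.41, 0.15 and 0.58.

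The genes whose log2 CPM ran most closely with each member over the 12 libraries were sought among 11003 genes with a mean of at least 100 normalized counts. The libraries share the differences between the 4 groups, so these values describe likeness and carry no test. For Sst the closest were Tusc3 and Vstm2l (Pearson correlation 0.969 and 0.963), for Npy Tusc3 and Rgs10 (0.967 and 0.959) and for Cck Vps28 and Bsg (0.993 and 0.991). For Gad1 they were Cx3cl1 and Rph3a (0.973 and 0.970), for Gad2 Ndrg4 and Phyhipl (0.993 and 0.983), for Calb1 Leprotl1 and Atp6v1d (0.952 and 0.948), for Calb2 Sult4a1 and Dnajb2 (0.951 and 0.951) and for Reln Lmtk3 and Sox1 (0.983 and 0.981). Among the members, Sst and Npy ran together at 0.921 and Gad1 and Gad2 at 0.859, while Gad1 and Sst reached 0.290. Reln had negative values with Sst, Npy, Cck and Calb1, between -0.553 and -0.280.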

How the data were processed

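Stranded total-RNA libraries with molecular identifiers were made from Input and RIP RNA. Per the submitters' processing notes and the study's methods, reads were handled with UMI-tools 1.1.1 and cutadapt 3.4 and aligned to mm10 (GRCm38) with STAR 2.7.7a. The deposited values are raw counts of reads per gene, made by the authors with featureCounts 2.0.1 (strand setting 2) on Ensembl release 97. A read that overlapped several genes, or had several alignments, was counted each time, so genes with near-identical copies are uncertain. The authors' tables of their own comparisons hold mean normalized counts, fold changes and p-values. They served only to match symbols to Ensembl identifiers, and their values were not used. Gene names for 55394 of the 55573 identifiers were found in a name table.

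Genes whose normalized counts averaged 10 or more were kept (17126), TMM factors were computed on them, and 1 quasi-likelihood model of 4 groups was fitted to 12 libraries with edgeR 4.0.16 (R 4.3.3). CPM are counts per 1000000 of the TMM-scaled library size, and log2 CPM used a prior count of 2. Calls against Input needed a fold of 1.25, and calls between RIPs a fold of 2, both with a p of 0.05 or less after Benjamini-Hochberg adjustment. The standard error is the log2 fold change divided by the root of the F statistic. Scripts were tested on simulated data. Alternatives were DESeq2 1.42.0, other scalings and filters, removal of the trend with exonic length by loess (span 0.3), a replicate block, the 2 groups alone and leaving out each library, and, added after the data were seen, length removal by coding transcript length. Transcripts and coding parts were those of GENCODE (Ensembl release 96).

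Deviations from the group mean of YTHDF3 and Input libraries with equal replicate numbers correlated at 0.829, 0.528 and 0.804 across genes, and so these were taken as pairs. Those of YTHDF1 and YTHDF2 did not, and were not taken as pairs. The study's methods describe lysates divided between the RIPs with a shared input, without saying that replicate numbers match across groups. Whether the replicates of the RIPs came from separate litters is not given in the sources used here, and p-values measure the spread between these libraries.

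Named genes were the 8 members in every comparison with Input, members past the threshold between RIPs, the 2 genes most correlated with each member, and, from each list, the called genes at either extreme of log2 fold change, at most 2 at each. Slc32a1 was named after its values were seen. Some genes that this rule names are not reported here. The members and lists were chosen with earlier results of these data known.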

Additional observations from a re-analysis of the deposited data

Results flagged for a closer look

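Differences between the RIPs of the proteins were called for 2 members. Reln was higher in the YTHDF1 RIP than in the YTHDF2 RIP by 1.32 and than in the YTHDF3 RIP by 1.31 on the log2 scale, by the test of those RIPs against each other. All 3 YTHDF1 libraries were above all 6 libraries of the other proteins. Cck was higher in the YTHDF2 RIP than in the YTHDF3 RIP by 1.11 on the log2 scale, in all 3 libraries of each. None of these calls remained with library size alone or with the length trend removed. The Cck call was also lost in 6 of the 12 fits with 1 library left out. Outlying libraries were not sought by a fixed criterion, since each group holds 3.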

How the results depend on the processing

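Against Input, 5 members were called in each RIP. Under DESeq2, the other scalings and both filters 4 or 5 were called, and with no filter on low counts Gad2 was depleted (-1.54) and Reln no longer called in the YTHDF2 RIP. With the length trend removed, 2 were called in each, 3, 2 and 2 with the replicate block added, and 2, 3 and 2 when coding transcript length was used. In the YTHDF3 RIP, 8 were called in the fit of the 2 groups with the replicate block, the design that pairs equal numbers, and the replicate block over all 12 libraries left 5. Leaving out 1 library gave 4 to 5 calls for YTHDF1, 4 to 5 for YTHDF2 and 3 to 5 for YTHDF3, the 3 without Input replicate 2. Of the 1 member called between YTHDF1 and YTHDF2, 0 remained with library size alone or the length trend removed, with or without block, and 3 were called with no filter on low counts. Between YTHDF1 and YTHDF3 the 1 call became 0 with library size alone, the length trend removed and in fits of the 2 groups. Between YTHDF2 and YTHDF3 it became 0 with library size alone, the length trend removed and either replicate block, and 2 others were called with no filter. Leaving out 1 library gave 1 call throughout for the first 2 pairs and 0 to 1 for the last. The peptide to reelin difference was -1.80, -1.60 and -1.29 with the length trend removed, and -4.76 to -4.41, -3.15 to -2.96 and -3.83 to -3.38 when 1 library was left out. Same-numbered libraries of YTHDF1 and Input correlated at 0.09, -0.27 and -0.32 in their deviations and those of YTHDF2 and Input at 0.18, -0.32 and -0.31, and replicate 2 of both correlated best with Input replicate 3 (0.467 and 0.560). Their numbers may therefore not match those of Input, and the replicate block, which left their counts at 5, says little about them.

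Signs turned for Gad1, Gad2 and Calb2, which were not called in the fit of all 12 libraries, and for Dab1, Fyn and Scg5, list genes that were called. With the length trend removed, Gad1 was at -0.015 with YTHDF3 and Dab1, an adaptor of reelin, at -0.10 and -0.016 with YTHDF1 and YTHDF3. With the replicate block added, Gad1 was at -0.043 and -0.061, Dab1 at -0.10 and -0.014, and Calb2 at 0.12 with YTHDF1. By transcript length, which was tried after the data were seen, Calb2 was at 0.25 with YTHDF1, Dab1 at -0.27 and -0.12, and Scg5, a chaperone of peptide processing, at 0.25 and 0.010. With library size alone Fyn was at -0.0090 with YTHDF1. In the YTHDF3 RIP, leaving out 1 library moved Gad2 between -0.95 and 0.080, above 0 without Input replicate 1 (0.062) or YTHDF3 replicate 3, and Gad1 between -0.15, without YTHDF3 replicate 1, and 0.80. The causes were not tested. With 3 libraries a group, the width of the intervals of Gad1, Gad2 and Calb2 limits what the fit of all 12 libraries could show.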
